A study of Mus musculus with 14 samples.

Results

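The 10 naive pluripotency transcription factors *Nanog*, *Klf2*, *Klf4*, *Klf5*, *Esrrb*, *Tfcp2l1*, *Tbx3*, *Zfp42*, *Nr0b1* and *Nr5a2* were followed by RNA-seq in 14 mouse embryonic stem (ES) cell lines. They form a list of names, with no measured value in the rule that defines it, although earlier results of these data were known when the list was made, and all 10 were found among the 23298 genes measured and passed the filter on low values. Each line was derived from 1 blastocyst of a cross between C57BL/6J (B) and CAST/EiJ (C) mice, with the mother's strain written first. The groups were BC XX (3 lines), BC XY (3), BC XO (2), CB XX (3) and CB XY (3), so that BC lines have a C57BL/6J mother and CB lines a CAST/EiJ mother. By the cross, each line inherited 1 set of autosomes of each strain, and whether every line kept that balance in culture was not tested. None of the lines was treated or edited, and all were grown in serum with leukemia inhibitory factor (LIF) on mouse embryonic fibroblasts, which were depleted before RNA was taken. Because each line is 1 embryo, the p-values measure the spread between lines, and a level in bulk RNA does not separate fewer expressing cells from less RNA per cell.

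Naive pluripotency is the state of the preimplantation epiblast, and it is held in culture by a network of transcription factors that bind the genes of one another as well as those of *Pou5f1* and *Sox2*. LIF acts through Stat3 on *Klf4* and *Tfcp2l1*, Wnt signaling relieves the repressor Tcf7l1 at *Esrrb*, *Nanog* and *Tfcp2l1*, and FGF signaling through ERK opposes the network. In serum with LIF these factors fluctuate between cells, and a second active X chromosome is known to dampen MAPK signaling and to favor the naive state, which is the question behind a comparison of XX with XY and XO lines.

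Values are a read signal per gene that the authors scaled to a common depth, and the smallest step of a line was treated as a single read. Counted in this way the lines held from 11904416 (CB XY 2) to 69646259 reads (BC XX 2), and the factors rested on at least 716 reads in every line. The ES cell markers *Pou5f1* and *Sox2* were high in all 14 lines (*Pou5f1* from 10829.8 to 29385.5, *Sox2* from 6913 to 15878). RNA of 15 fibroblast genes was highest in BC XX lines, where their values summed to 39898 to 94741, against 5028 to 21881 in the other 11 lines, and none of the 15 was at 0 in any line. *Uty*, a Y-linked gene, was at 945 to 2088 in BC XY lines and at 1149 in CB XY 1, but at 19.6 in the line labelled CB XY 2 and at 45.4 in that labelled CB XY 3. It was at 12.79 to 195.5 in XX lines and at 15.15 to 30.59 in XO lines. *Uty* does not stand for all 4 Y-linked genes listed. For BC XX against BC XY lines the log2 fold changes were -3.72 (*Uty*) and -1.47 (*Ddx3y*). They were 0.46 for *Eif2s3y* and 2.13 for *Kdm5d* (limma, adjusted p = 0.0407), which were thus higher in the BC XX lines. Beside several results below, values are also given from fits without CB XY 2 and CB XY 3 or with the fibroblast level as a covariate. That level (mean log2 of the 15 genes) was 9.92 to 11.09 in BC XX lines and 7.56 to 9.54 in the other lines. In comparisons of BC XX with another group the covariate and the group are therefore hard to separate.

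The promoters of 4 factors are shown because their genes carry the results that follow: *Klf2* differed between crosses, *Nanog* and *Tfcp2l1* each varied with *Nr5a2* between lines, and *Zfp42* stood apart from the others. The sequences are those of RefSeq (GRCm38.p6, a later build than the mm9 coordinates used elsewhere), from 250 bases before to 50 bases after the annotated start, 5′ to 3′ on the strand of the gene, and they are C57BL/6J reference sequence, which gives 1 of the 2 parental alleles. Promoters were listed for 8 of the 10 factors, and the first listed start was taken. Capitals mark matches on either strand to the KLF-type words GGGTGTGG and GGGCGTGG, the GC box GGGCGGGG, the octamer-type ATGCAAA, the SOX-type CATTGT and the STAT-type TTCNNNGAA.
Nanog, chr6:122707239-122707538, plus strand: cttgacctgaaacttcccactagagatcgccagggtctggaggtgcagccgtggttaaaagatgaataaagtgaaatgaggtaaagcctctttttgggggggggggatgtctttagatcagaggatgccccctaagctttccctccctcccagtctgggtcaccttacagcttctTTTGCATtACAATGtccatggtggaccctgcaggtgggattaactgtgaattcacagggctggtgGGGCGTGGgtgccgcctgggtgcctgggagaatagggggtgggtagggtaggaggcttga
Tfcp2l1, chr1:118627695-118627994, plus strand: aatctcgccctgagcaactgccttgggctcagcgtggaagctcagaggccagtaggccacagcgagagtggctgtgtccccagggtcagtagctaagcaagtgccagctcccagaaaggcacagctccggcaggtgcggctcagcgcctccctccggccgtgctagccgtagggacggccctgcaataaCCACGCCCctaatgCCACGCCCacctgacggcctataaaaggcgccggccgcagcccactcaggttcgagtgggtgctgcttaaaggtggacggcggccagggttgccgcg
Klf2, chr8:72318812-72319111, plus strand: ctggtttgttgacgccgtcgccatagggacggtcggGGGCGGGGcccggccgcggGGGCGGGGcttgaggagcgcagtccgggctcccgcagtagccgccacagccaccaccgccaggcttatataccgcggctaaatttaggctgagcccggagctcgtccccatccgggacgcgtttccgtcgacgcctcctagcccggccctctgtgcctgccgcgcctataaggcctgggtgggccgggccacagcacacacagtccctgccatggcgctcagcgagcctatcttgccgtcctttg
Zfp42, chr8:43306960-43307259, minus strand: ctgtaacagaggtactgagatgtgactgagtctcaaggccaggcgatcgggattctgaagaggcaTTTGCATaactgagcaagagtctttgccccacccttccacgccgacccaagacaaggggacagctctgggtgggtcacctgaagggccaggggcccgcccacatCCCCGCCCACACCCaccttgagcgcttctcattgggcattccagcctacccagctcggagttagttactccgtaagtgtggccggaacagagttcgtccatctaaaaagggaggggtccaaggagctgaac

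In the *Nanog* window the octamer-type word began at position -75 from the start and was 1 base away from the SOX-type word. The C form of the KLF-type word, GGGCGTGG, was found in *Nanog* and in 2 copies in *Tfcp2l1*, and 5.33% of the 32851 promoters of the table hold it. The T form, GGGTGTGG, was found in *Zfp42* alone of the 8 factors (3.56% of promoters), where it overlapped a GC box by 2 bases. *Klf2* held 2 GC boxes, a word found in 17.6% of promoters, and *Klf4* held 4, of which one pair overlapped by 3 bases. The octamer-type word was found in *Nanog* and *Zfp42* (4.63% of promoters), the SOX-type word in *Nanog* and *Esrrb* (12.6%), and the STAT-type word in *Esrrb* (8.3%). The word TCAAGGTCA, bound by Esrrb and Nr5a2, was in none of the 8 windows and in 0.423% of promoters. These are matches of letters and not measured binding.

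All factors were strongly transcribed in every line, from *Nr5a2*, an orphan nuclear receptor, to *Zfp42* (Rex1), a zinc finger protein used as a marker of naive cells. Divided by exon length, the mean signal over 14 lines was 4865 per kb for *Zfp42*, above 98% of the 15844 genes with a length, and 3506 per kb for *Nanog*. *Esrrb* followed with 2560 per kb, *Tfcp2l1* with 2042, *Klf2* with 1950.1 and *Nr0b1* with 1923. The lowest levels per length were those of *Klf5* (1441 per kb), *Klf4* (1289.5 per kb), *Tbx3* (629 per kb) and *Nr5a2* (495 per kb, above 77.4% of genes).

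**Figure D1:**
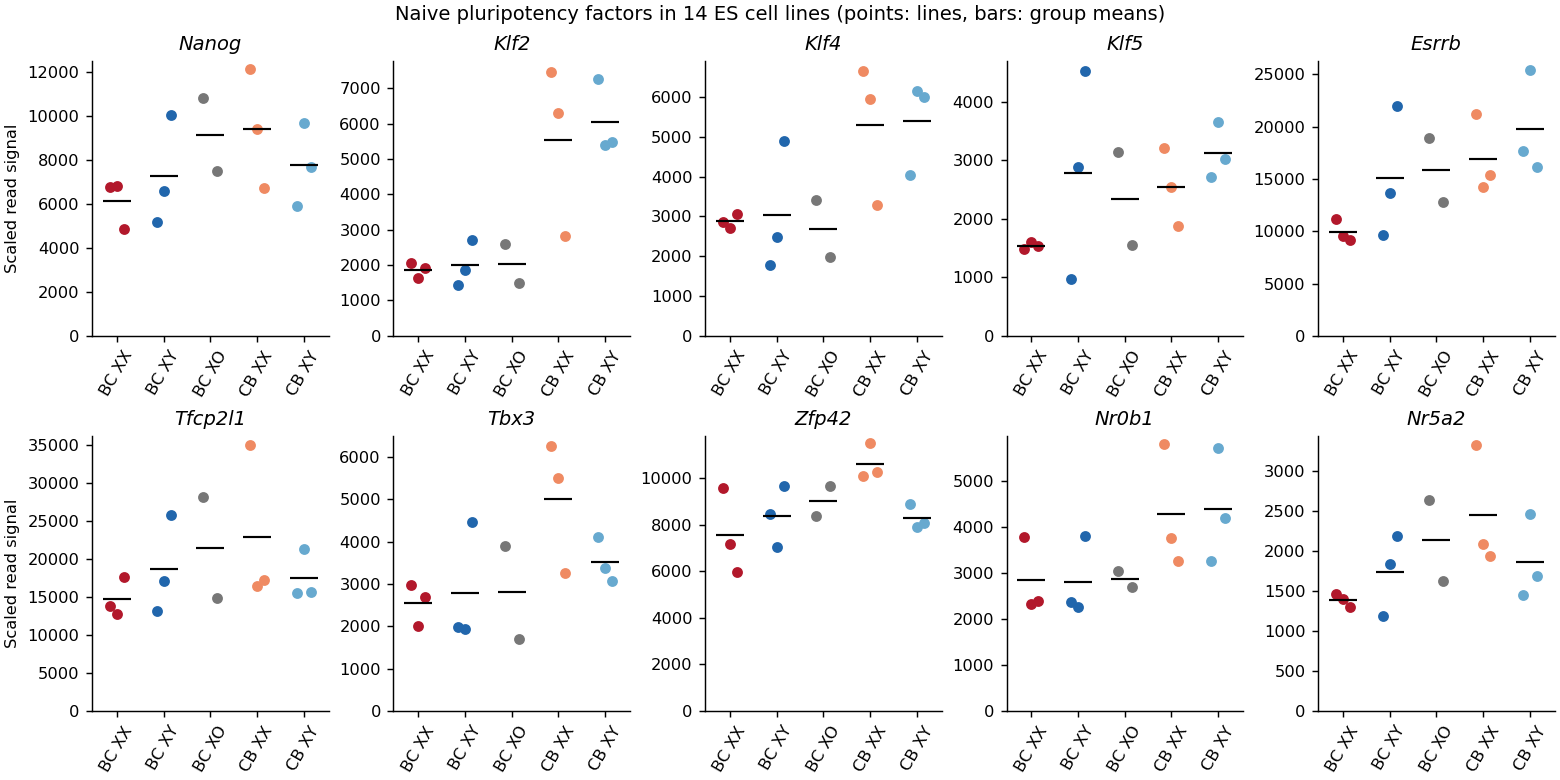
Scaled read signal (linear axis from 0) of the 10 factors in the 5 groups, with 1 point for each of the 14 lines and a bar for the group mean. *Klf2* is the factor whose 6 CB lines (2835 to 7469) all lie above its 8 BC lines (1434 to 2706), while in the other 9 panels BC and CB lines overlap.

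Whether 2 X chromosomes alter the naive network was asked first by comparing 6 XX with 6 XY lines. *Nanog*, the homeodomain factor that stabilizes self-renewal, had a median of 6787 in XX lines (lowest 4852, highest 12130.0) and of 7125 in XY lines (5163 to 10050.2). The ranges overlapped almost wholly, and the log2 fold change on the log2(value + 5) scale was 0.03 (95% interval -0.43 to 0.50). *Esrrb*, a nuclear receptor and a target of *Nanog*, had a median of 12657 in XX (9128 to 21238) and 16900.0 in XY lines (9659.5 to 25442). Its log2 fold change of -0.37 (interval -0.90 to 0.15) and that of the Krüppel-like factor *Klf5*, -0.46 (-1.14 to 0.22), were the lowest of the 10. *Klf5* had a median of 1741 in XX (1483 to 3221) and of 2951 in XY lines (969 to 4521). *Tbx3*, a T-box factor, was the highest with 0.21 (-0.40 to 0.83).

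None of the 10 factors passed an FDR of 0.05 between XX and XY lines in limma, and 0 passed an unadjusted p of 0.05, while 5.21% of 15311 genes passed the first threshold and 23.1% the second. The log2 fold changes were positive for 5 factors and negative for 5, with adjusted p (limma, Benjamini-Hochberg over all genes) from 0.385 to 0.993, and the median over all genes was -0.028. The narrowest interval was that of *Zfp42* (log2 fold change 0.10, -0.23 to 0.43) and the widest that of *Klf2* (-0.14, -1.14 to 0.85), so differences within these intervals are not excluded by 6 lines on each side. Without CB XY 2 and CB XY 3 again 0 factors passed, although *Klf2* (0.20), *Klf4* (0.32) and *Nr0b1* (0.25) then had positive log2 fold changes. With the fibroblast level as a covariate all 10 log2 fold changes were positive, with a median of 0.42, and *Nr5a2* had the lowest adjusted p (limma, 0.64, 95% interval 0.26 to 1.03, adjusted p = 0.0849).

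The comparison was repeated within each cross. Between BC XX and BC XY lines 0 factors passed the FDR (5.7% of 16261 genes) and 0 an unadjusted p of 0.05 (23.1% of genes), and 8 of 10 log2 fold changes were negative. *Esrrb* was at 11130.0, 9497 and 9128 in the BC XX lines and at 9659.5, 13654 and 22005 in the BC XY lines. BC XY 1 thus fell within the BC XX range, and the log2 fold change was -0.53 (SE 0.27, limma, adjusted p = 0.263). *Klf5* was at 1483, 1599 and 1528.5 in the BC XX lines, the tightest group of any factor, and at 969, 2883 and 4521 in the BC XY lines. Its log2 fold change of -0.60 (SE 0.42, limma, adjusted p = 0.422) became -1.23 without BC XY 1 (limma, adjusted p = 0.0283), the one fit in which a factor passed in this comparison. Fibroblast RNA was higher in BC XX than in BC XY lines at 10 of 15 genes (log2 fold change of *Col1a1*, the main fibrillar collagen, 3.72, SE 0.50, limma, adjusted p = 0.00155). With that level as a covariate all 10 log2 fold changes were positive, with a median of 0.77, and 0 factors passed. Those of *Klf5* and *Esrrb* were 0.68 and 0.70.

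Between CB XX and CB XY lines 0 factors passed the FDR (3.57% of genes) or an unadjusted p of 0.05 (18.6% of genes). *Zfp42* was the nearest to the threshold, at 10104, 11521 and 10239 in CB XX lines and at 8890.1, 7904 and 8052 in CB XY lines. The log2 fold change was 0.36 (SE 0.17, limma, adjusted p = 0.275), or 0.25 (SE 0.26) without CB XY 2 and CB XY 3. *Zfp42* also gave the only unadjusted p under 0.05 among the factors for the interaction of sex and cross (log2 difference of the fold changes -0.52, SE 0.24, limma, adjusted p = 0.539). It was -0.42 without CB XY 2 and CB XY 3 and -0.35 with the fibroblast level as a covariate. For that interaction 0 factors passed the FDR (0.0738% of genes) and 9.05% of genes had an unadjusted p under 0.05. None of the 15 fibroblast genes differed between CB XX and CB XY lines at the FDR.

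The XO lines carry 1 X chromosome without a Y and so separate X dosage from the Y chromosome. BC XO 1 and BC XO 2 differed from each other for most factors. *Nanog* was at 10809 and 7489, *Tfcp2l1* at 28160.1 and 14913, and *Klf5* at 3140.0 and 1555 in the 2 lines. *Zfp42* (8361 and 9653) and *Nr0b1* (3053 and 2687.5) were the closest. Between BC XX and BC XO lines 0 factors passed the FDR (4.66% of genes) and 1 had an unadjusted p under 0.05 (23.7% of genes). This was *Esrrb*, at 18900.4 and 12765.5 in the XO lines, with a log2 fold change of -0.65 for XX against XO (SE 0.30, limma, adjusted p = 0.207). *Nanog* (-0.57) and *Nr5a2* (-0.58) also had negative log2 fold changes. Of the 10 log2 fold changes 9 were negative, and 9 were positive with the fibroblast level as a covariate, with 6 of 15 fibroblast genes higher in BC XX than in BC XO lines. Between BC XO and BC XY lines 0 factors passed the FDR (0.00615% of genes, a single gene) or an unadjusted p of 0.05 (1.49% of genes), with log2 fold changes from -0.10 (*Klf4*) to 0.36 (*Nanog*).

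*Nr0b1* (Dax1), a nuclear receptor without a DNA-binding domain that partners *Nr5a2* and *Esrrb*, is the only factor on the X chromosome (mm9, chrX:83437103-83441286). It was at 3791, 2329 and 2395 in BC XX, at 2365.5, 2264 and 3796 in BC XY, at 5798, 3755 and 3269 in CB XX, and at 3251.5, 5725 and 4199 in CB XY lines. XX and XY lines thus overlapped in both crosses. The log2 fold change of XX against XY was -0.01 (SE 0.25, 95% interval -0.56 to 0.53), whereas the median over 564 X-linked genes was 0.65, above that interval, and 226 of 227 X-linked genes called were higher in XX lines. Of the X-linked genes 7.62% had a lower log2 fold change than *Nr0b1*, and 214 had one at or below the upper bound of 0.53. Without CB XY 2 and CB XY 3 the log2 fold change of *Nr0b1* was 0.25 (-0.30 to 0.79). With the fibroblast level as a covariate it was 0.44 (-0.15 to 1.03) for XX against XY. For BC XX against BC XY lines with the covariate it was 1.26 (0.55 to 1.96, limma, adjusted p = 0.22). The X-linked median of 0.65 belongs to XX against XY with all lines and without the covariate. It was not computed in these 3 fits, so *Nr0b1* cannot be set against the X-linked level in them. The covariate fit of BC XX against BC XY lines is weak, since the fibroblast level did not overlap between BC XX (9.92 to 11.09) and BC XY lines (7.56 to 8.67). In it 7 genes passed in place of 927. Expressed relative to the median of its chromosome in each line, its log2 fold change was -0.66 (SE 0.28, limma, adjusted p = 0.191). The single X of an XY line is the mother's, so that *Nr0b1* is read from a C57BL/6J X in BC XY and from a CAST/EiJ X in CB XY lines, and an effect of strain on the alignment to mm9 was not tested.

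**Figure D2:**
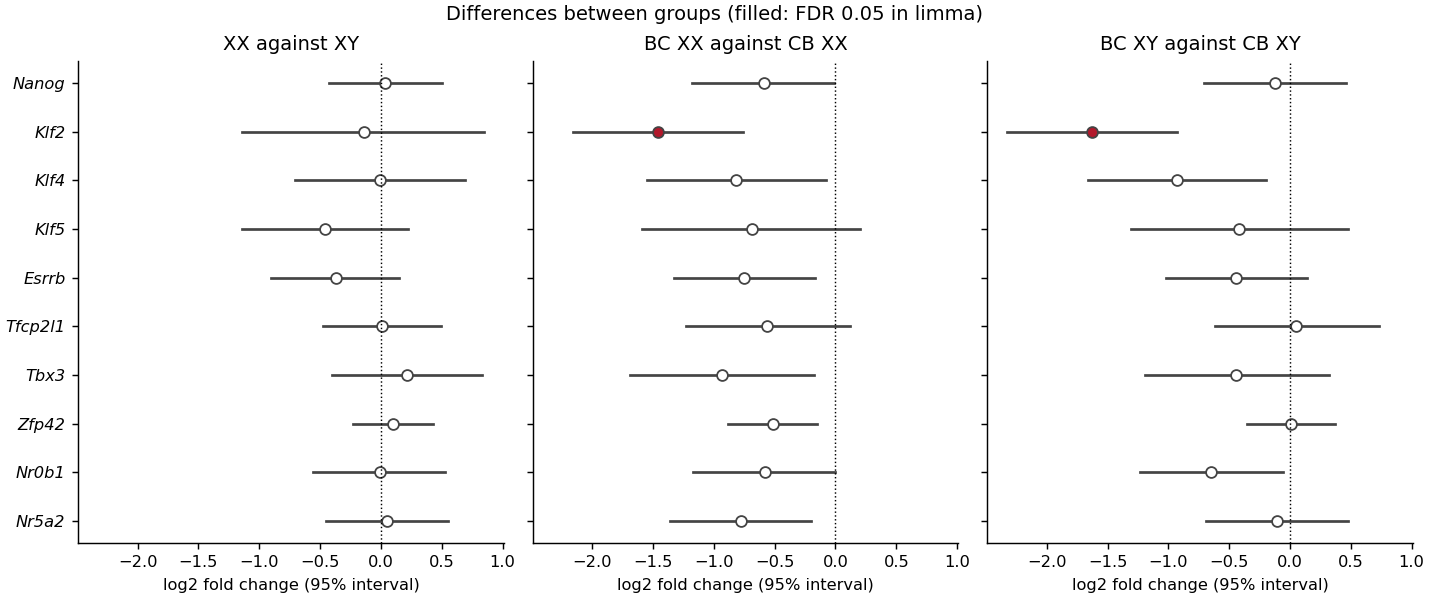
Log2 fold changes of the 10 factors with 95% intervals (limma, log2(value + 5) scale) for XX against XY lines and for BC against CB lines of each sex. Filled points pass an FDR of 0.05, which only *Klf2* does, at -1.46 in XX and -1.63 in XY lines.

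The reciprocal crosses were then compared within each sex. *Klf2*, a Krüppel-like factor of the naive network whose protein is turned over after ERK phosphorylation, lies at mm9 chr8:74842932-74845555 and was the one factor to pass. It was at 2059, 1623 and 1911 in BC XX lines and at 7469, 6291 and 2835 in CB XX lines. In XY lines it was at 1434, 1851 and 2705.5 for BC and at 7266, 5401 and 5488 for CB, and the BC XO lines held 2609 and 1482.5. All 6 CB lines were above all 8 BC lines, as they were for *Klf2* alone among the factors and for 0.59% of 16261 genes. The log2 fold change of BC XX against CB XX lines was -1.46 (2.75-fold lower, SE 0.33, limma, adjusted p = 0.0219), and that of BC XY against CB XY lines was -1.63 (3.1-fold lower, SE 0.33, limma, adjusted p = 0.0388). The CB lines were sequenced less deeply (11904416 to 31997700 reads) than the BC lines (24117728 to 69646259), and the part of depth was not tested. The difference had the same sign in every alternative, from -1.04 to -1.88 in XX and from -1.42 to -1.91 in XY lines.

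The side of the threshold depended on single lines. In XX lines the call on *Klf2* was lost without BC XX 2, BC XX 3, CB XX 1 or CB XX 2 (limma, adjusted p from 0.0726 to 0.125), and it was strongest without CB XX 3 (log2 fold change -1.88, limma, adjusted p = 0.00131). In XY lines it was lost without any one of the 6 lines (limma, adjusted p from 0.0843 to 0.145), and without both CB XY 2 and CB XY 3 (-1.91, limma, adjusted p = 0.269), which leaves CB XY 1 as the only CB XY line, assumed to vary like the other groups. In fits without 1 line 2 to 8 genes passed in that comparison, against 104 with all lines. With the fibroblast level as a covariate the log2 fold change was -1.04 in XX lines (limma, adjusted p = 0.533) and -1.79 in XY lines (limma, adjusted p = 0.0138). Relative to chromosome 8 it was -1.23 in XX lines and -1.44 in XY lines, with adjusted p (limma) of 0.0501 and 0.071.

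In XX lines the other 9 factors were also lower in the BC than in the CB group mean, and none of them passed. With *Klf2*, 1 of 10 factors passed the FDR (7.15% of genes) and 7 had an unadjusted p under 0.05 (26.5% of genes). The median log2 fold change of the 10 was -0.72, beside -0.009 over all genes. *Klf4*, a LIF-responsive reprogramming factor, was at 2869.5, 2711 and 3059 in BC XX and at 6662, 5949 and 3277 in CB XX lines. *Tbx3* was at 2975, 2004 and 2684 in BC XX and at 6265, 5498 and 3249 in CB XX lines. In both genes CB XX 3 lay near the BC XX lines and the other CB XX lines well above them. The log2 fold changes were -0.82 (SE 0.34, limma, adjusted p = 0.148) and -0.93 (SE 0.35, limma, adjusted p = 0.114), and both passed without CB XX 3 (limma, adjusted p = 0.0429 and 0.0413).

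*Nr5a2* was at 1457, 1400.0 and 1294 in BC XX and at 3326, 2088.5 and 1931 in CB XX lines. *Zfp42*, at 9577, 7165 and 5968 in BC XX lines, had a log2 fold change of -0.51 (SE 0.17, limma, adjusted p = 0.0772), and it passed without BC XX 1 (-0.70, limma, adjusted p = 0.0181). Every CB XX line was above every BC XX line for 7 factors (*Klf2*, *Klf4*, *Klf5*, *Esrrb*, *Tbx3*, *Zfp42* and *Nr5a2*), a pattern found in 12.6% of genes. These BC XX lines were those with the most fibroblast RNA, and 7 of 15 fibroblast genes were higher in BC XX than in CB XX lines at the FDR (*Postn*, a matrix protein of mesenchyme, by a log2 fold change of 5.88, SE 0.71, limma, adjusted p = 0.00125). With the fibroblast level as a covariate 5 factors had positive and 5 negative log2 fold changes, the median was 0.01, and 0 factors passed. In the primitive endoderm list 3 of 8 genes, *Foxa2*, *Gata6* and *Sox17*, were also higher in BC XX than in CB XX lines at the FDR. They were named after their values were seen, and their levels were low (means of 113.6, 178.2 and 68.99 in BC XX lines). Of the 8 log2 fold changes 6 were positive, while *Sox7* (-0.44) and *Hnf4a* (-0.21) went the other way. None of the 3 named genes passed with the fibroblast level as a covariate (limma, adjusted p from 0.467 to 0.573).

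In XY lines 1 of 10 factors passed the FDR (0.64% of genes), again *Klf2*, and 3 had an unadjusted p under 0.05 (18.7% of genes). The others were *Klf4* (log2 fold change -0.93, SE 0.34, limma, adjusted p = 0.166) and *Nr0b1* (-0.65, SE 0.27, limma, adjusted p = 0.222). *Klf4* was at 1772, 2473 and 4897 in BC XY lines and at 4033, 6162 and 5995 in CB XY lines, so that BC XY 3 lay within the CB range. Without CB XY 2 and CB XY 3 the log2 fold changes were -0.54 (95% interval -1.62 to 0.55) for *Klf4* and -0.25 (-1.07 to 0.57) for *Nr0b1*. Every CB XY line was above every BC XY line for 1 factor, *Klf2*, and for 14% of genes. *Tfcp2l1* (0.05, 95% interval -0.62 to 0.73) and *Zfp42* (0.01, -0.35 to 0.37) had the values nearest to 0. Fibroblast genes did not pass at the FDR in this comparison, and with their level as a covariate *Esrrb* (-0.74, limma, adjusted p = 0.0324) and *Nr0b1* (-0.95, limma, adjusted p = 0.0173) passed beside *Klf2*.

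**Figure D3:**
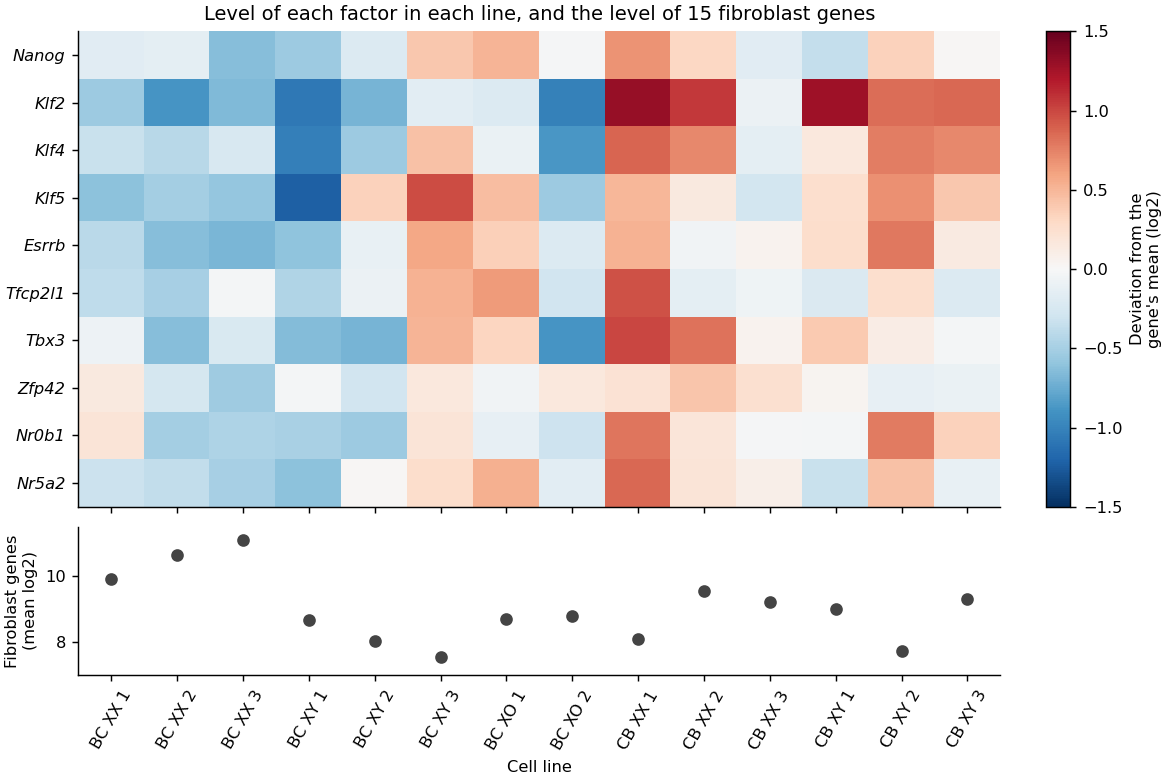
Deviation of each factor from its own mean over 14 lines (log2, colors) by line, above the mean log2 level of 15 fibroblast genes in the same lines. CB XX 1 is above the mean for all 10 factors, BC XX 2, BC XX 3 and BC XY 1 are below it for all 10, and the fibroblast level is highest in BC XX 3 (11.09).

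Lines of the same group differed widely for most factors. The share of a factor's sum of squares (log2 values, 14 lines) that lay within groups was 20.1% for *Klf2*, 44.5% to 48.1% for *Klf4*, *Esrrb* and *Zfp42*, and 52.5% (*Nr0b1*) to 77.8% (*Tfcp2l1*) for the other 6 factors. With 14 lines in 5 groups, a gene without group differences also holds most of its sum of squares within groups. These shares were not counted over all genes, and by themselves they do not show a wide spread. The SD of log2 values within groups was 0.43 for the median factor, against 0.23 for the 5280 genes with a mean log2 level of 10 or more. It was 0.62 for *Klf5*, higher than in 98.2% of those genes, and 0.21 for *Zfp42*, higher than in 44.1% of them. The highest line over the lowest was 5.21-fold for *Klf2*, 4.67-fold for *Klf5* and 1.93-fold for *Zfp42*. CB XX 1 held the highest value of the 14 lines for 7 factors (*Nanog*, *Klf2*, *Klf4*, *Tfcp2l1*, *Tbx3*, *Nr0b1* and *Nr5a2*), and its mean deviation over the 10 factors was 0.77 on the log2 scale. BC XY 1 held the lowest value for 4 factors (*Klf2*, *Klf4*, *Klf5* and *Nr5a2*) and had a mean deviation of -0.67. Within the same group, BC XY 3 had a mean deviation of 0.39 and was above the gene's mean for 9 factors.

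The groups were ordered by their means for each factor. BC XX had the lowest mean for 8 factors, with BC XO lowest for *Klf4* and BC XY lowest for *Nr0b1*. CB XY was highest for *Klf2* (6052), *Klf4* (5397), *Klf5* (3132), *Esrrb* (19747) and *Nr0b1* (4392), and CB XX for *Nanog* (9423), *Tfcp2l1* (22928), *Tbx3* (5004), *Zfp42* (10622) and *Nr5a2* (2448.5). Neighbors in these orders overlapped in their lines with 3 exceptions, CB XX above BC XO for *Klf2*, for *Zfp42* and for *Nr0b1*. How many of all genes show that separation, or have their lowest mean in BC XX lines, was not counted, so neither is read as a trait of the factors. Separation is frequent with so few lines: every CB XX line was above every BC XX line in 12.6% of 16261 genes.

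Most pairs of factors varied together over the lines, and *Zfp42* was the least like the others. Over 45 pairs Pearson's r of log2 values over 14 lines ran from 0.16 to 0.93 with a median of 0.68, and 21 pairs reached 0.7. The highest were *Nanog* with *Nr5a2* (r = 0.93, Spearman's rho = 0.86), *Klf2* with *Klf4* (r = 0.89, rho = 0.91), *Klf5* with *Esrrb* (r = 0.89, rho = 0.91) and *Tfcp2l1* with *Nr5a2* (r = 0.88, rho = 0.80). After group means were removed the same 4 pairs had r of 0.90, 0.78, 0.86 and 0.88, and the median over all pairs was 0.71. *Zfp42* had r from 0.16 (*Klf5*) to 0.53 (*Tbx3*) with the other factors, and within groups from -0.22 to 0.39. These correlations are descriptions, since the points share libraries, scaling and the fibroblast RNA of each line.

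**Figure D4:**
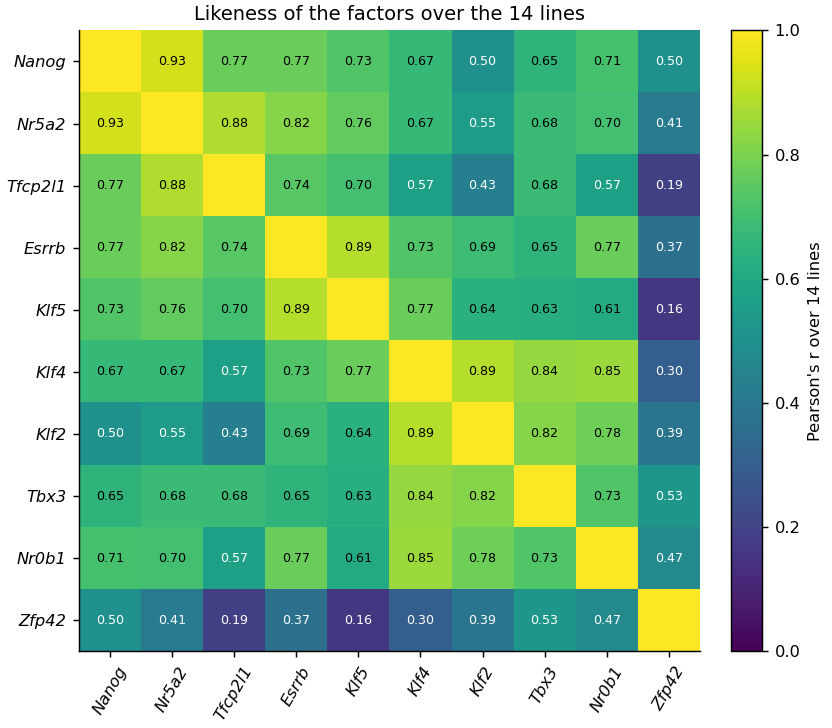
Pearson's r between the 10 factors over 14 lines (log2 values, colors and printed numbers). *Nanog* and *Nr5a2* have the highest r (0.93) and *Zfp42*, in the last row and column, has r of 0.53 or less with every other factor.

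Fibroblast RNA moved with part of this variation. Over 14 lines the mean log2 level of the 15 fibroblast genes had r = -0.76 (rho = -0.69) with *Esrrb*, -0.61 (rho = -0.56) with *Nr5a2*, -0.60 (rho = -0.65) with *Klf5* and -0.25 (rho = -0.20) with *Tbx3*. Without BC XX 2 and BC XX 3, the lines farthest from the median fibroblast level, r was -0.60 for *Esrrb*, -0.47 for *Nr5a2* and 0.39 for *Zfp42*, which had been at -0.34. Within groups *Esrrb* and *Nr0b1* both had r = -0.83. The part of fibroblast RNA in the levels of the factors was not tested.

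The level of whole chromosomes moved with some lines. In CB XX 1 the genes of chromosome 1 had a median deviation of 0.30 on the log2 scale and those of chromosome 6 of 0.23. *Tfcp2l1* (mm9, chr1:120524522-120581744) and *Nr5a2* lie on chromosome 1 and *Nanog* on chromosome 6, and all were highest in CB XX 1. So were *Klf2*, *Klf4*, *Tbx3* and *Nr0b1*, which lie on chromosomes 8, 4, 5 and X, and chromosome 8 had a median deviation of -0.01 in that line. *Tfcp2l1* was at 35098 in that line, against 12742 to 17672 in the other 5 XX lines. In CB XY 2 and CB XY 3, as labelled, chromosome 6 had medians of 0.29 and 0.25, where *Nanog* was at 9689 and 7674. Chromosome 8, with *Klf2* and *Zfp42*, was raised in CB XX 3 (0.26) and CB XY 1 (0.33), of which the first had the lowest *Klf2* of the CB lines and the second the highest of the CB XY lines. Relative to their own chromosome, *Tfcp2l1* (-0.53 for BC XX against CB XX, 95% interval -1.13 to 0.06) and *Nanog* (-0.58, -1.09 to -0.07) changed little from the values without that step (-0.56 and -0.59). For *Zfp42* the log2 fold change went from -0.51 to -0.28 (-0.63 to 0.07). *Esrrb* passed in this fit (-0.96, limma, adjusted p = 0.0453).

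**Figure D5:**
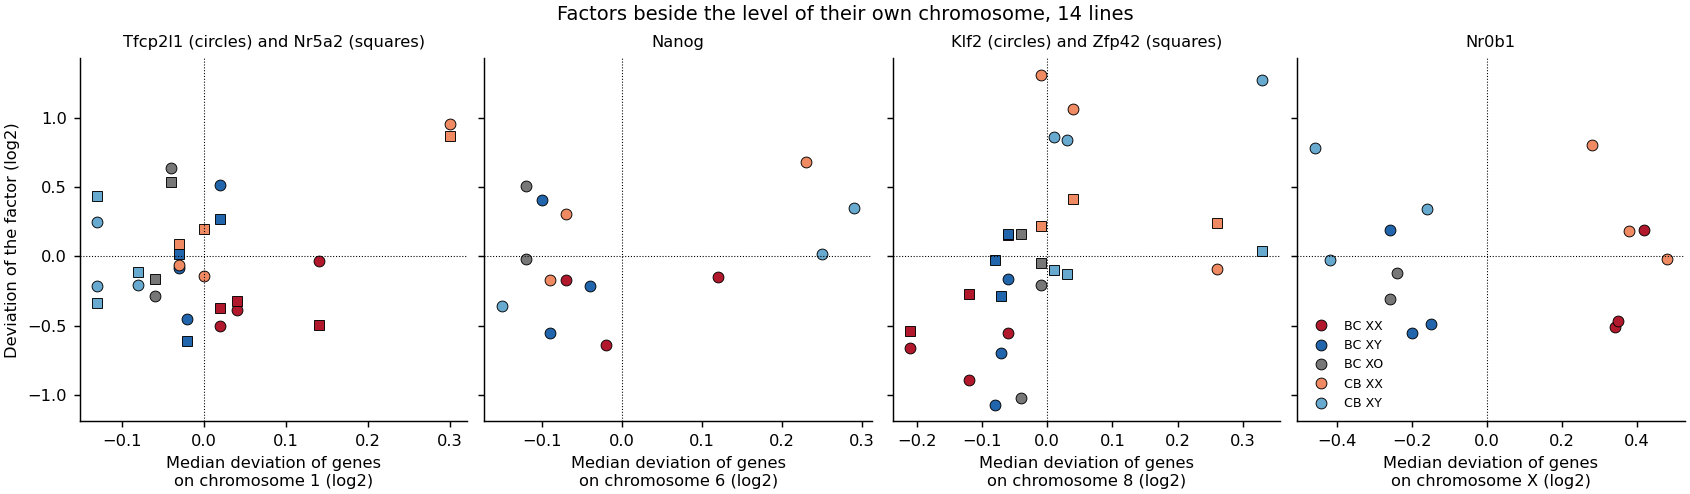
Deviation of 6 factors from their mean (log2, vertical) against the median deviation of all genes on the same chromosome (log2, horizontal) in 14 lines, colored by group, for chromosomes 1, 6, 8 and X. CB XX 1 stands to the right for chromosome 1 (0.30), and *Nr0b1* overlaps between lines with a high and a low X chromosome median.

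Genes whose pattern over the 14 lines was most like that of a factor were searched among 10800 genes. *Klf2* was nearest to *Jund* (r = 0.961), a Jun family factor on the same chromosome, and *H2afx* (0.958), a histone variant. *Esrrb* was nearest to *Susd2* (0.956) and *Slc12a7* (0.95), *Klf5* to *Sap130* (0.93) and *Syt7* (0.918), and *Klf4* to *Dnajb2* (0.922) and *Plbd2* (0.906). For *Nanog* the nearest were *Nr5a2* (0.928) and *Dido1* (0.885), and for *Nr5a2* they were *Nanog* and *Msc* (0.908). For *Tfcp2l1* both nearest genes, *Ccdc93* (0.897) and *Msc* (0.885), lie on chromosome 1 as it does. *Tbx3* was nearest to *Nptx1* (0.925) and *Ralb* (0.881), *Nr0b1* to *Dact2* (0.918) and *Aqp3* (0.895), and *Zfp42* to *Gnb1l* (0.903) and *Isoc2a* (0.884).

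The genes around the network were counted in the same fits, in which 5.21% of all genes passed for XX against XY lines. Of the core factors, *Pou5f1* had a log2 fold change of -0.07 (95% interval -0.50 to 0.37), *Sox2* of -0.06 (-0.55 to 0.44) and *Sall4*, a zinc finger partner of *Nanog*, of -0.61 (-1.09 to -0.14, limma, adjusted p = 0.121), and none passed. With the fibroblast level as a covariate the values were 0.20, 0.19 and -0.31, and *Sox2* was at 0.09 without CB XY 2 and CB XY 3. Of 12 further genes associated with naive cells 0 passed, and of 7 genes of the LIF and Stat3 pathway 0 passed, with 9 and 2 positive log2 fold changes and medians of 0.10 and -0.29. Nearest to the threshold among the 12 were *Zscan10* (-0.56, limma, adjusted p = 0.052) and *Prdm14* (0.90, limma, adjusted p = 0.0629). With the fibroblast covariate *Prdm14* passed (1.27, limma, adjusted p = 0.0466) and *Zscan10* did not (-0.38, limma, adjusted p = 0.409). Of 7 Wnt pathway genes 2 fell in XX lines. *Axin2*, a feedback target of β-catenin, averaged 415 ± 134 (SD, n = 6) in XX and 1177 ± 383.5 (SD, n = 6) in XY lines, with no overlap (log2 fold change -1.51, SE 0.27, limma, adjusted p = 0.00641). It also passed without CB XY 2 and CB XY 3 (limma, adjusted p = 0.0181) and with the fibroblast covariate (limma, adjusted p = 0.0194). *Lef1*, a TCF-family factor, had a log2 fold change of -1.10 (limma, adjusted p = 0.0241), which passed in neither of those fits (limma, adjusted p = 0.0987 and 0.0949).

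Of 10 genes of the FGF and ERK pathway 1 fell and 0 rose, a share near that of all genes. This was *Mapk3*, which encodes ERK1, with a log2 fold change of -0.54 (SE 0.15, limma, adjusted p = 0.0498), and with adjusted p (limma) of 0.0612 without CB XY 2 and CB XY 3 and of 0.215 with the fibroblast covariate. Of 8 genes of formative and primed cells 2 fell. *Dnmt3b*, a de novo DNA methyltransferase, averaged 5388 ± 2509.8 (SD, n = 6) in XX and 13280.2 ± 3899 (SD, n = 6) in XY lines (log2 fold change -1.35, SE 0.29, limma, adjusted p = 0.0171). It passed with the fibroblast covariate (limma, adjusted p = 0.0109) but not without CB XY 2 and CB XY 3 (limma, adjusted p = 0.0673). *Dnmt3a* had a log2 fold change of -0.62 (limma, adjusted p = 0.0442) and passed in neither of those fits (limma, adjusted p = 0.192 and 0.0687).

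Of the 15 fibroblast genes all had positive log2 fold changes for XX against XY lines, with a median of 1.27, and 1 passed, *Thy1* (1.51, limma, adjusted p = 0.0476). In the primitive endoderm list *Hnf4a*, at 15.7 to 39.0 in XX lines and 0 to 17.4 in XY lines, was the 1 of 8 genes that passed (1.58, limma, adjusted p = 0.0467), and it passed in neither of the other fits (limma, adjusted p = 0.117 and 0.111). Its low values and direction do not stand for the list, in which 3 of 8 log2 fold changes were positive and the median was -0.13. Of 6 trophoblast genes 5 were tested and 0 passed, and of 4 Y-linked genes 0 passed over the 12 lines. Named after their values were seen, *Prdm14*, a naive-associated repressor, rose in CB XX against CB XY lines (1.13, limma, adjusted p = 0.0328), and *Dusp6*, an ERK phosphatase, fell (-1.37, limma, adjusted p = 0.00266). Leaving out CB XY 2 and CB XY 3 leaves CB XY 1 as the only CB XY line, so that no call is read from that fit. The log2 fold changes were then 1.21 (*Prdm14*) and -1.44 (*Dusp6*). For BC XX against BC XY lines neither gene passed (*Prdm14* 0.66, limma, adjusted p = 0.157, and *Dusp6* -0.19, limma, adjusted p = 0.546).

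Calls that set BC XX lines against others were made where fibroblast RNA also differed. In BC XX against BC XO lines, with 6 of 15 fibroblast genes higher in BC XX, *Sall4* (-1.06, limma, adjusted p = 0.0443) and the pluripotency zinc finger gene *Zscan10* (-1.17, limma, adjusted p = 0.0182) passed. With the fibroblast covariate neither did (-0.64 and -0.95, limma, adjusted p = 0.583 and 0.307), in a fit in which 4 genes passed in place of 758. In BC XX against CB XX lines, with 7 of 15 fibroblast genes higher in BC XX, *Pim3*, a kinase gene induced by Stat3, had a log2 fold change of -1.20 (limma, adjusted p = 0.0318), *Fgf5*, a marker of primed cells, of 2.62 (limma, adjusted p = 0.00656) and *Dusp6* of 1.34 (limma, adjusted p = 0.00136). With the fibroblast covariate they were at -0.55, 1.79 and 1.24 (limma, adjusted p = 0.669, 0.345 and 0.0639), and 43 genes passed in place of 1162.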

How the data were processed

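RNA-seq of 14 ES cell lines was analysed. The labels and methods state stranded total RNA libraries after depletion of fibroblasts, alignment to mm9 with TopHat2 and comparison with Cuffdiff; versions are not given in the sources used here. The deposited table holds 1 read signal per gene and line, which the authors had scaled to one depth (sums of 28150946 to 30657803). Of low values, 98.4% to 98.9% were whole multiples (within 0.05 of a step) of a step of 0.407 to 2.46 per line, taken as 1 read, and 3 reads correspond to values of 1.22 to 7.37. The 3 CB XX columns match their group but not single labels, so their numbers follow the column order.

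Values were tested as log2(value + 5) with limma 3.58.1 (trended variance, R 4.3.3) and Benjamini-Hochberg adjustment at an FDR of 0.05: XX against XY on 12 lines (value of 10 or more in 6 lines, 15311 genes) and other comparisons in 1 model of 5 groups (10 or more in 2 lines, 16261 genes). Left out were 15 genes listed at 0 throughout a group but at 100 or more elsewhere. Intervals cover 95%. Fold changes on this scale understate changes of low genes. Steps were tested on simulated data. Python 3.11.15 joined tables. Gene positions are from GENCODE M1 (NCBIM37, mm9), which placed 21954 of the genes.

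The members and lists were chosen with earlier results of these data known. Named were all members, list genes called in XX against XY (at most 4 per list), the core factors in full, and the 2 genes nearest to each member among those with a mean log2 level of at least 7. Alternatives were another pseudocount, no filter, median-ratio size factors, fibroblast level or cross as a covariate, values relative to the own chromosome, fewer lines, a replicate block and each line left out. Precision weights on recovered reads and XY lines alone without a block were chosen after seeing the data.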

Additional observations from a re-analysis of the deposited data

Results flagged for a closer look

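*Tfcp2l1* in CB XX 1 stood apart from the other XX lines. Its value of 35098 was separated from the next of the 6 XX lines by 0.779 of the whole range, above the 95% limit of Dixon's test for 6 samples (0.625). Over 20 combinations of factor and sex tested in this way, this was the single value past the limit, and chance alone gives about 5% of such groups. The median of all genes on chromosome 1, which holds *Tfcp2l1*, was raised by 0.30 on the log2 scale in the same line, and the part of that rise in the value was not tested.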

How the results depend on the processing

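The number of factors that passed was 0 in every alternative for the interaction, for XX against XY on 12 lines, for the XO lines against either BC group, and within the CB cross. For BC XX against BC XY it was 0 to 1 without 1 line. For BC XX against CB XX it was 0 to 3 without 1 line and 0 with the fibroblast level as a covariate, and relative to the own chromosome the 1 that passed was *Esrrb* in place of *Klf2*. For BC XY against CB XY it was 0 without any 1 line, with no filter on low values, relative to the own chromosome, with precision weights and without CB XY 2 and CB XY 3, and 3 with the fibroblast level as a covariate. Beyond the fewer lines or genes tested, the cause was not tested.

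Of 37 log2 fold changes under 570 alternatives, 476 kept sign and side of the threshold, 16 lost the call, 7 gained it and 71 changed sign, 39 of them without 1 line, and none of the 71 passed the FDR. With the fibroblast level as a covariate the values that changed sign were 0.36 (*Klf2*), 0.40 (*Klf4*), 0.08 (*Klf5*), 0.17 (*Esrrb*) and 0.44 (*Nr0b1*) for XX against XY. For BC XX against CB XX they were 0.11 (*Nanog*), 0.14 (*Klf5*), 0.04 (*Esrrb*), 0.17 (*Tfcp2l1*) and 0.22 (*Nr0b1*), and for BC XY against CB XY -0.22 (*Tfcp2l1*) and -0.04 (*Zfp42*). Among the 37 they were also 0.68 (*Klf5*) and 0.70 (*Esrrb*) for BC XX against BC XY, and 0.25 (*Esrrb*), 0.24 (*Nanog*) and 0.28 (*Nr5a2*) for BC XX against BC XO. The 37 do not hold every factor of these BC comparisons. Over all 10 factors, the number of positive log2 fold changes went from 2 to 10 for BC XX against BC XY. For BC XX against BC XO it went from 1 to 9. Without CB XY 2 and CB XY 3 they were 0.20 (*Klf2*), 0.32 (*Klf4*) and 0.25 (*Nr0b1*) for XX against XY, and 0.24 (*Nanog*), -0.10 (*Zfp42*) and 0.22 (*Nr5a2*) for BC XY against CB XY. Relative to the own chromosome they were 0.01 (*Klf4*), -0.13 (*Tfcp2l1*) and -0.09 (*Nr5a2*) for XX against XY, and 0.08 (*Nanog*) and -0.05 (*Tfcp2l1*) for BC XY against CB XY. With median-ratio size factors *Klf4* was at 0.00, and with precision weights *Tfcp2l1* was at -0.00, *Nr0b1* at 0.00 (XX against XY) and *Zfp42* at -0.04 (BC XY against CB XY).

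Without 1 line the ranges that crossed 0 were, for XX against XY, -0.11 to 0.16 (*Nanog*), -0.40 to 0.08 (*Klf2*), -0.23 to 0.13 (*Klf4*), -0.19 to 0.12 (*Tfcp2l1*), -0.17 to 0.14 (*Nr0b1*) and -0.12 to 0.15 (*Nr5a2*), and for BC XY against CB XY, -0.38 to 0.10 (*Nanog*), -0.89 to 0.22 (*Klf5*), -0.21 to 0.28 (*Tfcp2l1*), -0.10 to 0.13 (*Zfp42*) and -0.30 to 0.14 (*Nr5a2*).

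The count over all genes ranged over the alternatives from 313 to 1746 for XX against XY (797 in the fit reported), 7 to 1222 for BC XX against BC XY (927) and 133 to 699 within CB (581). It was 4 to 1080 for BC XX (758) and 0 to 3 for BC XY (1) set against XO lines, 43 to 2576 between the crosses in XX (1162) and 2 to 1189 in XY lines (104), and 0 to 25 for the interaction (12). Same-numbered lines of different groups share a number only, since their deviations had correlations from -0.494 to 0.27. With the replicate block on BC lines 0 factors passed (505 genes for BC XX against BC XY, 946 on these lines without it). With the replicate block on XY lines 1 factor passed, *Klf2* (-1.63, limma, adjusted p = 0.0177, 291 genes, 382 without it). The planned edgeR fit was not run, because whole reads could not be recovered for all genes. With 2 or 3 lines to a group the width of the intervals limits what can be seen.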
